A study of Lytechinus variegatus with 9 samples.

Results

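The control embryos of a sea urchin RNA-seq series were described across genes. The control group holds the 3 DMSO libraries among the 9 libraries of the series, chosen by their labels, and no drug-treated library was used. Each library came from whole *Lytechinus variegatus* embryos of a separate mating, so 1 library stands for many pooled siblings. The embryos grew in untreated artificial seawater until the first skeletal rudiments had formed, between 18 and 20 h post-fertilization (hpf). They were then kept in seawater with the carrier DMSO, at the volume of the highest drug dose, until the late pluteus stage at 2 days post-fertilization (dpf) and 21 °C. DMSO was therefore common to all embryos described here. Mating and handling of a library cannot be told apart, because each mating gave 1 control library.

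The pluteus is the feeding larva of the sea urchin. It carries a calcite skeleton secreted by the primary mesenchyme cells (PMCs), a tripartite gut, a squamous dorsal (aboral) ectoderm, a ciliary band with neurons along the arms, pigment and blastocoelar cells derived from the secondary mesenchyme, muscle around the foregut, and coelomic pouches that hold the future adult tissue and the primordial germ cells. Bulk RNA mixes these cell types. A low level of a marker can come from few cells or from little RNA per cell, which cannot be told apart in whole embryos.

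Between 9942452 and 11815263 counts were assigned to genes per library. Of 26814 gene models, 17783 (66.3%) had at least 1 count in each of the 3 libraries, and 14876 (55.5%) had at least 10 in each. A single library detected between 19634 and 19924 gene models. Levels are given as FPKM (fragments per kilobase of transcript, scaled to library size), as mean ± SD over the 3 libraries (n = 3), and since FPKM is divided by length it can be compared between genes. A mean of at least 1 FPKM was reached by 14422 gene models (53.8%), at least 10 by 4909, at least 100 by 570 and at least 1000 by 61. The median was 1.43 FPKM over all gene models and 4.28 FPKM over those with counts in each library. Ranks below count from 1 for the gene with the highest mean FPKM, and the top 10% are the 10% of gene models with the highest mean FPKM.

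Transcripts were concentrated in few genes. The 10 genes of highest mean FPKM held 12.6% ± 1.69 of the summed FPKM of a library, the first 100 held 36.8% ± 0.397, and the first 1000 held 69.9% ± 0.268. Between 220 and 227 genes held 50% of the summed FPKM of each library. The 3 libraries largely ranked the same genes highest, since 82 gene models were among the first 100 of every library and 116 among the first 100 of any. Short gene models were common among the first 100 only. The median gene length was 864.5 bases for the first 100 genes and 2171 bases for the first 1000, against 2172 bases for all gene models.

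By description, 53 of the 100 most abundant gene models encoded cytosolic ribosomal proteins and 12 lay on the mitochondrial genome. Another 4 matched metallothionein or ferritin, 3 were histones, 3 were aboral ectoderm genes, 2 were actins and 2 were elongation factors 1-alpha. The mitochondrial genes held 23.5% ± 3.89 of the FPKM of these 100, and the ribosomal protein genes held 37.6% ± 4.33. Only 1 of the 100 had no description in either source, LOC121424994 at rank 12, with 2040, 1906 and 2348 FPKM in replicates 1, 2 and 3.

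**Figure D1:**
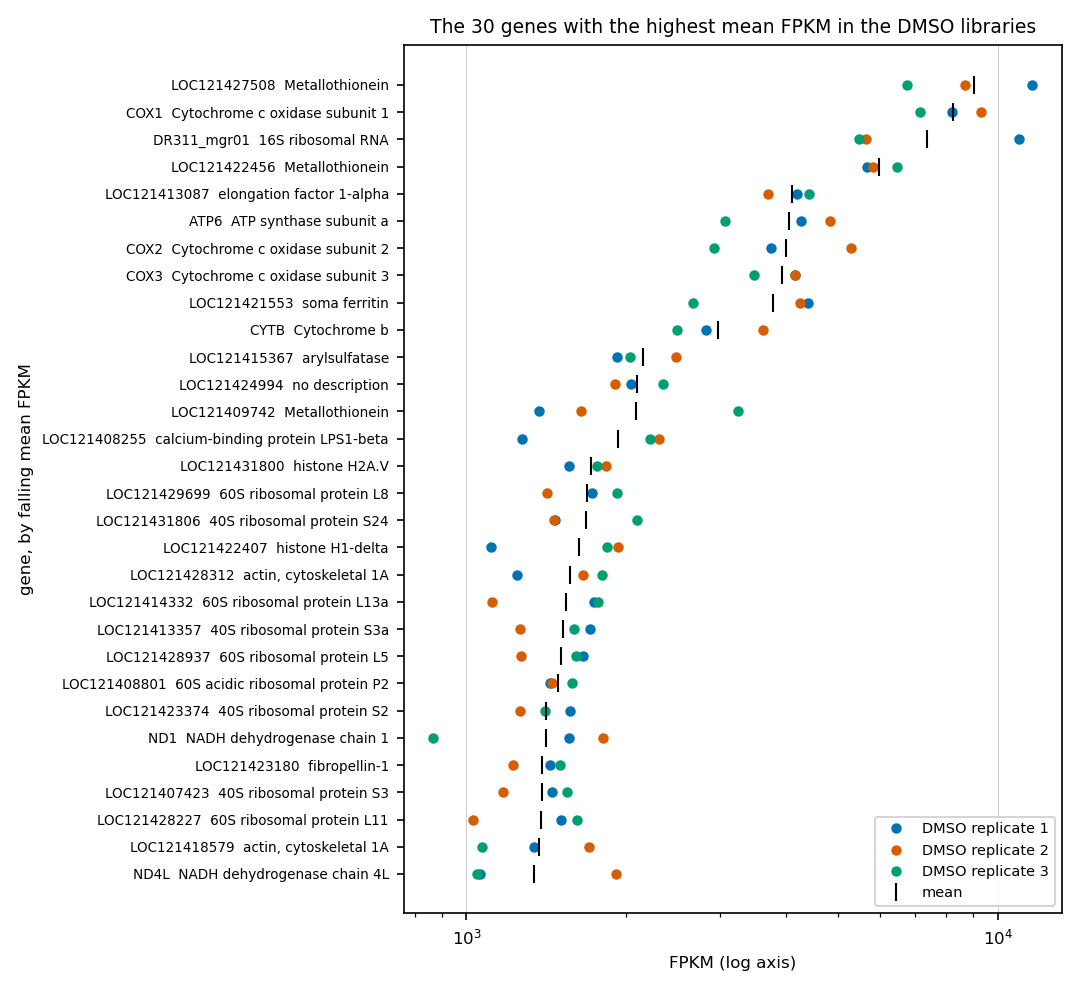
FPKM of the 30 gene models with the highest mean, on a log axis, with 1 coloured point per DMSO library and a black tick at the mean. The order runs from a metallothionein model at 9010 FPKM to ND4L at 1339 FPKM, and the 3 points of a gene show how far its libraries lie apart.

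Metal-binding proteins led the embryo's transcripts. The first gene was LOC121427508 (Lvar_3.0, chromosome 14, 9179766 to 9183203, plus strand), annotated as a lncRNA but matched by the deposited description to metallothionein, a small cysteine-rich protein that binds zinc and copper. It measured 11602, 8681 and 6747 FPKM in replicates 1, 2 and 3. LOC121422456 on chromosome 1, also matched to metallothionein, ranked 4th at 5980 ± 416 FPKM. The other metallothionein model among the first 30, LOC121409742, measured 1369, 1640 and 3245 FPKM. Replicate 3 was thus the lowest library for the first of these models and the highest for the others. Such models can share reads with near-identical copies, so their split between models is uncertain. Soma ferritin (LOC121421553), the iron storage protein, ranked 9th at 3770 ± 954 FPKM, whereas the neighbouring ferritin model LOC121421552 had 22.3 ± 2.00 FPKM.

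Mitochondrial transcripts came next. The mitochondrial genome encodes core subunits of the respiratory chain, its rRNAs and its tRNAs, and its 37 gene models held 9.01% ± 1.64 of the summed FPKM and 4.37% ± 0.771 of the counts. COX1, the catalytic subunit of cytochrome c oxidase, measured 8197, 9309 and 7151 FPKM in replicates 1, 2 and 3. The 16S rRNA measured 10973, 5657 and 5490 FPKM, so that replicate 1 lay far above the other 2 libraries. ATP6, COX2, COX3 and CYTB had means between 2977 and 4052 FPKM, and in each of these 4 genes replicate 3 was the lowest library. The NADH dehydrogenase subunits followed at lower levels, with ND1 at 1411 ± 487 FPKM and ND6 at 582 ± 173 FPKM. The mitochondrial tRNAs for phenylalanine, threonine and proline had 0 counts in all 3 libraries, which allows up to 3 counts per library, or between 0.254 and 0.302 CPM (counts scaled to the library total). The same limit holds for each 0 below, and it covers counting error only.

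The nuclear subunits of oxidative phosphorylation were present throughout. All 71 models had counts in each library, 63 lay in the top 10% of genes, and the median was 78.4 FPKM. The highest was the ATP synthase subunit C1, LOC121411302, part of the membrane ring of the enzyme, with 907, 870 and 872 FPKM. The ATP synthase beta subunit (LOC121426330) followed at 574 ± 57.3 FPKM. The median SD over the libraries, in log2(FPKM + 1), was 0.21 for the 67 nuclear models with a mean of at least 100 counts and 0.44 for the 15 such models of the mitochondrial genome, which include both rRNAs.

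Cytosolic ribosomal proteins had the highest median of the lists after ferritin and metallothionein. Of 95 gene models described as cytosolic ribosomal proteins, 91 had counts in each library, 89 lay in the top 10% and 3 had no counts, and their median was 836 FPKM. The highest were ribosomal protein L8 (LOC121429699) at 1686 ± 252 FPKM and ribosomal protein S24 (LOC121431806) at 1677 ± 365 FPKM. The 95 models together held 16.7% ± 1.77 of the summed FPKM. Elongation factor 1-alpha (LOC121413087), which brings aminoacyl-tRNA to the ribosome, ranked 5th with 4198, 3697 and 4404 FPKM, and a second model (LOC121427206) ranked 84th at 864 ± 144 FPKM. These 2 models can also share reads. The 52 translation factors as a whole had a median of 21.7 FPKM, with 26 in the top 10%.

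Histones were split between a few very abundant genes and many without counts. The variant H2A.V (LOC121431800), which is deposited outside replication, measured 1556, 1827 and 1758 FPKM and ranked 15th. Histone H1-delta (LOC121422407), a linker histone, had 1113, 1932 and 1841 FPKM, with replicate 1 the lowest. The replication-independent histone H3.3 followed at 1243 ± 68.8 FPKM for LOC121423267 and at 297 ± 39.9 FPKM for LOC121419374. In contrast, 48 of the 83 models of H2A, H2B, H3 and H4 without a variant name had 0 counts in all 3 libraries, and the highest of the 83, a late H2B (LOC121431913), had 4.09 ± 0.528 FPKM. The libraries were made from poly(A)-selected RNA, and most replication-dependent histone mRNAs of animals end in a stem-loop instead of a poly(A) tail. The part of that selection in these values was not tested.

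Cytoskeletal and protein quality genes were broadly present. A pair of models of cytoskeletal actin 1A had means of 1568 ± 287 (LOC121428312) and 1370 ± 317 FPKM (LOC121418579), with overlapping libraries, and near-identical actin copies make their split uncertain. The highest tubulin, an alpha-1 chain (LOC121413337), had 639 ± 151 FPKM. Among 97 chaperones, none was without counts and the median was 10.6 FPKM, led by calreticulin (LOC121423636), a calcium-binding chaperone of the endoplasmic reticulum, at 259 ± 65.8 FPKM. The 97 proteasome and ubiquitin models had a median of 19.9 FPKM, again with none at 0. Within this group polyubiquitin-C (LOC121415785) measured 19.9, 325 and 102 FPKM, and without replicate 2 its mean was 60.9 FPKM instead of 149 FPKM.

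**Figure D2:**
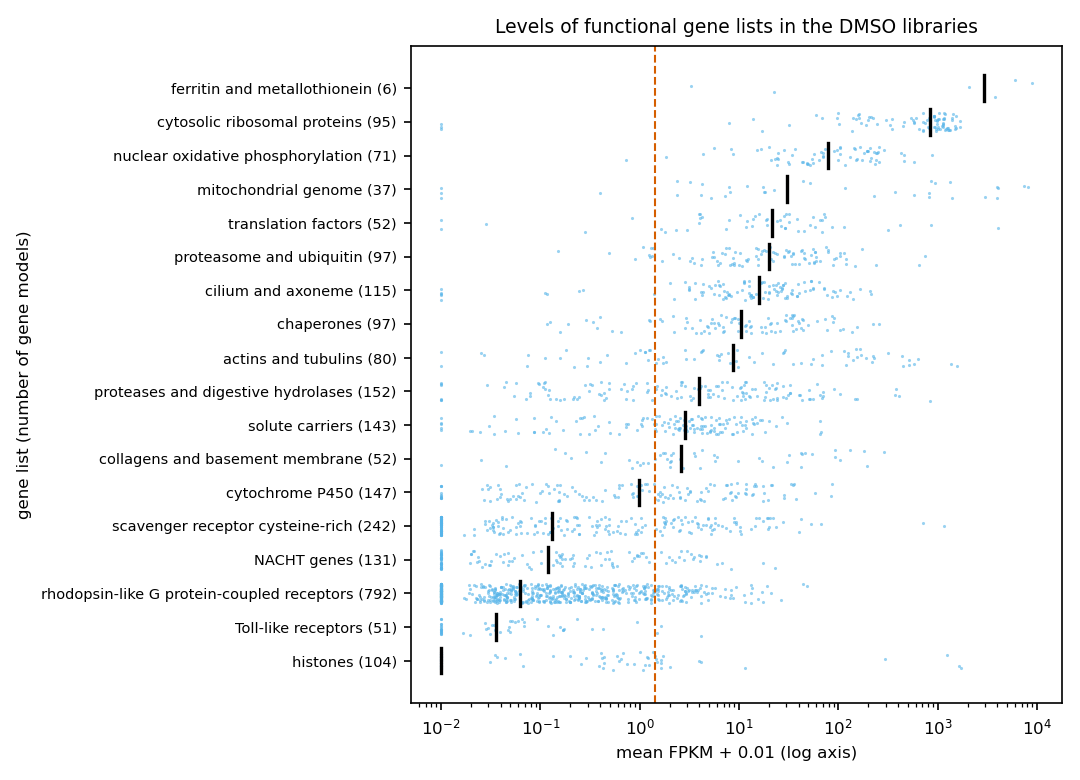
Mean FPKM + 0.01 on a log axis for each member (blue points) of 18 functional gene lists, with the list's median (black bar) and the median of all gene models, 1.43 FPKM (dashed line). Medians run from 2928 FPKM for ferritin and metallothionein, 6 gene models, to 0 for histones.

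Motile cilia cover the larva and form the ciliary band, and most genes of the axoneme were detected. Of 115 cilium and axoneme models, 107 had counts in each library, 46 lay in the top 10% and 5 had no counts, with a median of 15.9 FPKM. Axonemal dynein light chain 4 (LOC121422197), a part of the motor, had 245, 184 and 214 FPKM. Tektin-3 (LOC121423323) and tektin-B1 (LOC121430708), filament proteins of the doublet microtubules, had 207 ± 38.7 and 167 ± 21.9 FPKM. Radial spoke head proteins 9 and 4 followed at 140 ± 3.99 (LOC121419409) and 131 ± 8.63 FPKM (LOC121418296). The list's median SD over libraries was 0.17 in log2(FPKM + 1) over 100 models, below the 0.22 of all 10060 genes with a mean of at least 100 counts. The median SD falls with count, and counts were not matched here.

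Marker lists differ in size and in how they were chosen, so their medians do not rank tissues. Among these lists the aboral ectoderm had the highest median. Its 15 listed models were all detected in each library, 11 of them lay in the top 10%, and their median was 52.1 FPKM. Arylsulfatase (LOC121415367, chromosome 5, 12586938 to 12598294, minus strand), an extracellular matrix protein of this epithelium in sea urchins, ranked 11th with 1920, 2481 and 2036 FPKM. LPS1-beta (LOC121408255), a calcium-binding protein of the same cells, ranked 14th with 1272, 2305 and 2216 FPKM, replicate 1 being the lowest. LPS1-alpha (LOC121418822) had 985 ± 286 FPKM, and 3 further LPS1 models ranged from 104 (LOC121418680) to 332.7 FPKM (LOC121418823). These copies resemble each other, and their split is uncertain. The transcription factors of this territory were far lower than its structural genes. Irx had 52.1 ± 4.11 FPKM (LOC121407483), Tbx2/3 had 50.9 ± 13.9 FPKM (LOC446194), Hox7 had 33.01 ± 1.64 FPKM (LOC121410693) and Msx had 4.99 ± 1.36 FPKM (LOC121425090).

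Oral ectoderm and ciliary band genes were detected at moderate levels. All 11 models had counts in each library, 5 were in the top 10%, and the median was 15.8 FPKM. FoxG (LOC121419215), a transcription factor of the ciliary band, was the highest with 51.8, 45.5 and 49.1 FPKM. Of the 3 models named Pax2/5/8, the highest (LOC121432245) had 38.4 ± 6.49 FPKM. Onecut (LOC121416890), another ciliary band factor, had 25.2 ± 6.25 FPKM, Brachyury (LOC446151), expressed around the mouth and anus, had 21.9 ± 1.53 FPKM, and Goosecoid (LOC446163) had 14.9 ± 2.93 FPKM. Onecut and Brachyury did not differ beyond their spread.

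The skeletogenic mesenchyme was represented by 303 gene models that published single cell data had shown to be enriched in PMCs. That list required expression in at least 25% of the PMCs of another data set, so its detection here is not independent of how it was chosen. Counts in each library were found for 302 of the 303, a mean of at least 1 FPKM for 285, and a place in the top 10% for 75, and the median was 8.36 FPKM. By level, 1 model exceeded 1000 FPKM, 20 lay between 100 and 1000, 116 between 10 and 100, 148 between 1 and 10, and 18 under 1. Sm30A (LOC121406020, chromosome 19, 13351320 to 13355517, minus strand), a spicule matrix protein occluded in the skeleton, ranked 33rd with 1598, 1129 and 1172 FPKM. P19 (LOC121428634), a PMC protein, had 602 ± 46.6 FPKM, and the model named Atp11 (LOC121430258) had 534 ± 12.2 FPKM. Pm27 (LOC121406034), another spicule matrix protein, had 361 ± 41.3 FPKM. The list's median SD in log2(FPKM + 1) was 0.16 over 250 models, and none of these 250 exceeded 1.

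The study's curated table names 29 transcription factors linked to PMCs, of which 27 could be matched to gene models. Their median was 9.94 FPKM, 8 lay in the top 10%, and all 27 had counts in each library. Xbp1 (LOC121406953), a regulator of the secretory pathway, was the highest with 213, 272 and 167 FPKM, followed by Jun (LOC121423647) at 113 ± 29.3 FPKM. The core factors of early PMC specification were much lower. Ets1-2 (LOC121419770) had 9.94 ± 0.957 FPKM, Alx1 (LOC447794) had 8.09 ± 0.494 FPKM and Erg (LOC121419884) had 7.89 ± 0.625 FPKM. The libraries of Alx1 and Erg overlapped, and all 3 of Ets1-2 lay above them. Tbr (LOC121422001), an activator of the PMC programme in the early embryo, had 0.11, 0.928 and 0.0422 FPKM and ranked 16676th. Replicate 2 alone set its mean. Pitx1 (LOC121405583) and E78 (LOC121421023) were also under 1 FPKM, at 0.702 ± 0.333 and 0.401 ± 0.0563 FPKM.

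Gut genes were led by a structural protein, a regulator and digestive enzymes. Endo16 (LOC121406173, chromosome 19, 3194776 to 3215433, minus strand), a secreted protein of the gut, ranked 327th with 143, 166 and 224 FPKM. FoxA (LOC121419318), a transcription factor of the foregut and endoderm, had 177, 178 and 168 FPKM, an SD of 4.99 FPKM. The next gut factors were far lower, with Brn1/2/4 (LOC121414231) at 19.5 ± 1.44 FPKM, the hindgut factor Cdx (LOC121414860) at 10.5 ± 0.35 FPKM, and Xlox (LOC121407314), which marks the boundary of midgut and hindgut, at 10.1 ± 0.789 FPKM. Cdx and Xlox did not differ beyond their spread. Ptf1a (LOC121426314), a factor of pancreatic-type exocrine cells, had 9.71 ± 2.08 FPKM.

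Among 66 models of digestive enzymes, 52 had counts in each library, 15 lay in the top 10% and 1 had no counts, and the median was 3.31 FPKM. A carboxypeptidase B (LOC121409234) was the highest with 478, 397 and 354 FPKM, followed by trypsin-2 (LOC121406373) with 517, 353 and 271 FPKM. An alpha-amylase (LOC121417816) had 80.6, 24.1 and 100.96 FPKM. Digestive enzymes varied more between libraries than most genes, since 6 of the 31 with a mean of at least 100 counts (19.4%) had an SD above 1 in log2(FPKM + 1), against 166 of 10060 genes (1.65%). In the wider list of 152 proteases and digestive hydrolases, an endoglucanase A (LOC121409087), a cellulose-cleaving enzyme, stood first with 1459, 834 and 243 FPKM. The libraries were widely separated, and without replicate 1 the mean of this gene was 539 FPKM instead of 845 FPKM.

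Pigment cells were marked by the naphthoquinone pathway. Pks1 (LOC121428528), the polyketide synthase that makes the pigment echinochrome, had 45.01, 45.94 and 25.96 FPKM, and its upstream factor Gcm (LOC121430542) had 21.7, 25.5 and 16.3 FPKM. The highest flavin-containing monooxygenase model (LOC121428344), of a family expressed in these cells, had 108, 119 and 82.5 FPKM. Replicate 3 was the lowest library in all 3 genes. Of the 9 listed models, 8 had counts in each library, 6 had a mean of at least 1 FPKM and 5 lay in the top 10%. Their median was 21.2 FPKM, and the lowest had 0.043 FPKM.

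Muscle genes were led by contractile proteins. A tropomyosin (LOC121415027), the actin-binding regulator, had 378, 399 and 424 FPKM, the muscle myosin heavy chain (LOC446191) had 76.9, 82.7 and 90.8 FPKM, and a troponin T (LOC121421391) had 30.6 ± 8.77 FPKM. The libraries of tropomyosin, myosin heavy chain and troponin T followed the same order, with replicate 3 the highest. The myogenic factors were lower, with MyoR2 (LOC121430479) at 7.204 ± 2.24 FPKM and the MyoD models LOC446195 and LOC121405904, which resemble each other, at 4.13 ± 0.435 and 4.05 ± 0.483 FPKM. Citing earlier work, the study places selective expression of MyoD and MyoR2 in ventral PMCs. The levels of these factors are therefore not those of muscle alone. Of 31 models, 26 had counts in each library. A titin-like model (LOC121413041) was the only one without any.

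Blastocoelar and immune cell genes were low. Complement C3 (LOC121417165), an opsonin made by blastocoelar cells, had 4.85, 8.27 and 16.7 FPKM, and without replicate 3 its mean was 6.56 FPKM. The mesodermal factors Gata3 (LOC121411816) and Scl (LOC121423567) had 6.12 ± 1.27 and 4.49 ± 0.512 FPKM. By in situ hybridization the study also saw both in dorsal PMCs of this species, and Gata3 in the ventral midgut. Their levels are therefore not those of blastocoelar cells alone. The large receptor families of sea urchin innate immunity mostly lay under 1 FPKM. Of 51 Toll-like receptor models, 13 had counts in each library and 3 had a mean of at least 1 FPKM. No counts were found for 16 (31.4%), against 18.5% of all gene models. Of 131 NACHT domain models, the intracellular receptor family, 36 (27.5%) had no counts. Their median was 0.11 FPKM, which was 0.0632 FPKM without replicate 2. Of 242 scavenger receptor cysteine-rich models, 72 (29.8%) had no counts and 123 had counts in each library. A mean of at least 1 FPKM was reached by 74 (30.6%), against 53.8% of all gene models. Their median was 0.12 FPKM, 10 lay in the top 10%, and a pair of them was very abundant. These were a galectin-3-binding protein (LOC121410506) with 975, 1263 and 1265 FPKM and a group B member (LOC121429458) with 710 ± 43.7 FPKM. Members of these families are similar in sequence, and how reads shared between them were counted is not given in the sources used here.

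Coelomic pouch and germ line genes included Piwi (LOC121408762), a guardian of the germ line genome, with 55.7, 57.6 and 60.3 FPKM. Vasa (LOC121423730), a helicase of the primordial germ cells, had 9.27 ± 0.968 FPKM, and the highest Nanos model (LOC121408828), a translational repressor in those cells, had 5.97 ± 1.11 FPKM. SoxE (LOC100134947), a transcription factor of the coelomic pouches, had 38.3, 20.5 and 114.6 FPKM. Replicate 3 stood apart, and without it the mean was 29.4 FPKM instead of 57.8 FPKM. The eye and head factors known from other animals, Eya (LOC121431094), Dach (LOC121407329) and Pax6 (LOC121421029), ranged from 4.35 to 15.99 FPKM.

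Neuronal genes were detected from progenitor to transmitter. SoxB2 (LOC121430393), a neural progenitor factor, had 131, 140 and 175 FPKM, and Elav (LOC121423825), an RNA-binding protein of differentiating neurons, had 67.0 ± 9.48 FPKM. The synaptotagmin-1 models LOC121410540 and LOC121405894, calcium sensors of synaptic vesicles, had 25.6 ± 5.37 and 18.9 ± 2.17 FPKM. Of the enzymes of transmitter synthesis, tyrosine hydroxylase (LOC121405946, dopamine) had 9.47 ± 0.872 FPKM, choline acetyltransferase (LOC121432108) had 6.07 ± 1.92 FPKM and tryptophan hydroxylase (LOC121406329, serotonin) had 1.73 ± 0.546 FPKM. The TRH-type neuropeptide precursor (LOC121410084) varied more, with 24.7, 7.67 and 19.7 FPKM. All 14 models had counts in each library and 4 lay in the top 10%.

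**Figure D3:**
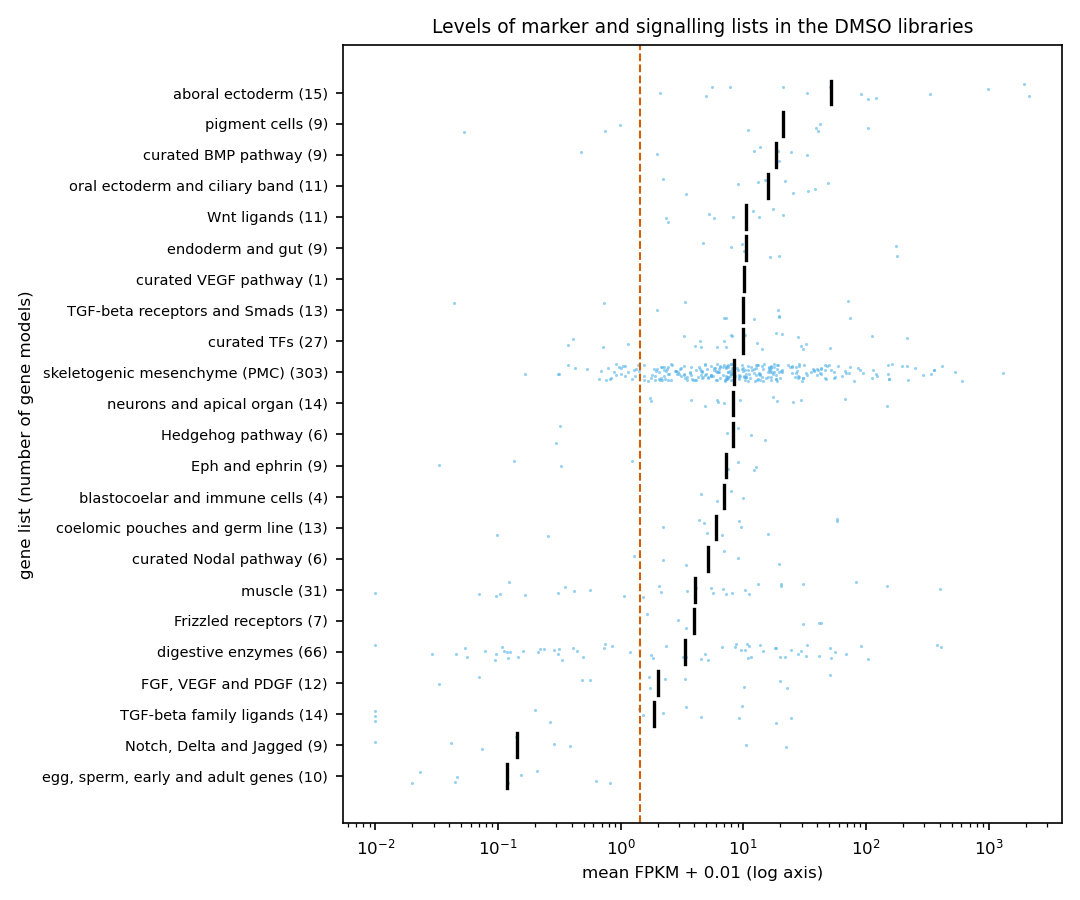
Mean FPKM + 0.01 on a log axis for each member (blue points) of 23 lists of cell type markers, signalling genes and the study's curated pathway genes, with the list's median (black bar) and the median of all gene models, 1.43 FPKM (dashed line). Aboral ectoderm has the highest median, 52.1 FPKM, and the genes of egg, sperm, early and adult stages have a median of 0.109 FPKM, or 0.0563 FPKM without replicate 2.

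Genes listed for other stages were low. They were chosen with earlier results of these data known, so they are no check of the stage label. Of 10 genes of the egg, the sperm, the early embryo or the adult, none reached a mean of 1 FPKM and only 1 had at least 10 counts in each library. Bindin (LOC447798), the sperm adhesion protein, had 0.0367 ± 0.0635 FPKM, ovoperoxidase (LOC446147), the enzyme that hardens the fertilization envelope, had 0.11 ± 0.166 FPKM, and the soft fertilization envelope proteins 1 (LOC446203) and 9 (LOC447792) had 0.00984 ± 0.0171 and 0.0129 ± 0.0224 FPKM. The hatching enzyme (LOC121431986), made by the blastula, had 0.271, 2.16 and 0 FPKM. Only replicate 2 exceeded 1 FPKM. A pair of major yolk protein models (LOC121428736 and LOC121428788), a product of adult tissues, had 0.196 ± 0.16 and 0.108 ± 0.0412 FPKM. The median of these genes was 0.109 FPKM, and 0.0563 FPKM without replicate 2. That library stood apart, with a summed level of 3.67 FPKM against 1.62 and 0.955 FPKM in replicates 1 and 3.

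Transcription factors were sorted by the deposited family names, which cover 963 gene models. Of these, 785 (81.5%) had counts in each library, 628 (65.2%) had a mean of at least 1 FPKM and 84 (8.72%) had no counts. The corresponding shares over all gene models were 66.3%, 53.8% and 18.5%. Among protein-coding models alone, 73.5% had counts in each library and 12.5% had none. The top 10% held 92 of the 963 factors, near the share that this cut sets for all gene models. The highest was an HMGB homologue (LOC121410947), an abundant DNA-bending protein, with 908, 725 and 815 FPKM. Sox-2 (LOC121430133), a SoxB1-type factor of the ectoderm, had 528, 560 and 489 FPKM. A Y-box factor (LOC121428202), which binds nucleic acids in the nucleus and the cytoplasm, had 412, 517 and 519 FPKM. A further HMGB homologue (LOC121409320) followed at 264 ± 42.6 FPKM. Xbp1 and FoxA, given above, were also among the highest. By mean, FoxA lay between the bZIP factors ATF-4 (LOC121422718), of the amino acid and stress response, and TEF (LOC121407063). These had 181 ± 62.4 and 161 ± 53.2 FPKM. Extra-macrochaetae (LOC121431399), an inhibitor of bHLH factors, was the highest of the bHLH family at 119 ± 8.39 FPKM.

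Families differed in how many of their members were detected. The 302 C2H2 zinc fingers had a median of 1.82 FPKM and only 3 in the top 10%, the highest being Krueppel-like factor 10 (LOC121430690) at 54.2 ± 19.4 FPKM. The 111 homeobox genes had a median of 2.09 FPKM with 19 at 0 counts, and Otx (LOC121418261) was their highest with 103, 93.9 and 86.3 FPKM. By contrast, all 33 HMG genes had counts in each library and their median was 13.1 FPKM, and 26 of 27 bZIP genes did with a median of 7.97 FPKM. The THAP family, with DNA-binding domains related to transposases, was the least detected of the families with at least 20 genes, with 37 of 89 members in each library and a median of 0.112 FPKM. Fork head genes (29 models) had a median of 4.84 FPKM and bHLH genes (60 models) 1.78 FPKM.

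Signalling components ranged widely in level. BMP ligands bind pairs of type I and type II serine/threonine kinase receptors, which phosphorylate Smad1/5/8, whereas Nodal acts through Alk4/5/7 and Smad2/3. BMP2/4 (LOC446159) had 30.04, 22.95 and 20.93 FPKM, and BMP5/8 (LOC121431669), labelled DVR-1 in the annotation, had 13.5, 17.8 and 24.5 FPKM. The order of the libraries was opposite for these ligands, with replicate 1 the highest for BMP2/4 and replicate 3 the highest for BMP5/8. The type I receptors Alk3/6 (LOC121431952) and Alk1/2 (LOC121423221) had 19.5 ± 1.98 and 19.3 ± 0.134 FPKM and did not differ beyond their spread, and the type II receptor BMPR2 (LOC121411232) had 12.2 ± 0.863 FPKM. Bmper (LOC121424882), an extracellular modulator of BMP, had 13.8 ± 0.803 FPKM. Smad1/5/8 (LOC121408094) had 1.28, 2.91 and 1.76 FPKM and was thus far below its receptors, while a pair of Smad6 models, the inhibitory Smad, had 74.2 ± 21.3 (LOC121411467) and 72.02 ± 27.8 FPKM (LOC121411468). These last models are neighbours with similar descriptions, and their split is uncertain.

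On the Nodal side, the receptor subunits ACVRII (LOC121410552) and Alk4/5/7 (LOC121428697) had 19.6 ± 0.799 and 6.98 ± 0.906 FPKM and Smad2/3 (LOC121411930) had 10.02 ± 1.26 FPKM. Chordin (LOC121427607), the BMP antagonist, had 9.01 ± 1.87 FPKM. The ligands were uneven between libraries. Nodal (LOC121431988) had 1.05, 4.02 and 1.51 FPKM, and its antagonist Lefty (LOC121418144) had 1.02, 7.47 and 1.67 FPKM. Replicate 2 was the highest for both, and without it the means were 1.28 and 1.35 FPKM. Univin (LOC121419172), another ligand of this branch, was also the highest in replicate 2, with 6.97, 14.2 and 6.41 FPKM. Of the 14 TGF-beta family ligand models, 9 (64.3%) had a mean of at least 1 FPKM, against 53.8% of all gene models. No counts were found for 3 (21.4%, LOC121423561, LOC121424238 and LOC121424538), against 18.5% of all gene models.

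All 11 Wnt ligand models had counts in each library and a mean of at least 1 FPKM, and their median was 10.5 FPKM. Wnt-3 (LOC121426221) was the highest with 17.9, 22.8 and 22.4 FPKM, followed by Wnt-5b (LOC121411849) at 17.4 ± 2.09 FPKM and Wnt8 (LOC446160) at 13.3 ± 1.75 FPKM. Wnt-10b (LOC121425122) was the lowest at 2.35 ± 0.348 FPKM. Of 7 Frizzled receptor models, the seven-pass receptors for Wnts, Frizzled-5 (LOC121422534), Frizzled-2 (LOC121423324) and Frizzled-7 (LOC121420173) had 43.3 ± 5.42, 41.0 ± 4.43 and 30.9 ± 5.07 FPKM, and the other 4 were under 4 FPKM.

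In the Notch pathway, Delta (LOC446219) had 21.6, 22.3 and 22.5 FPKM and Notch (LOC447795) had 10.5 ± 1.30 FPKM, whereas each of the 7 Jagged-like models was under 1 FPKM and 1 of them (LOC121413312) had no counts. Hedgehog signalling was represented by the ligand (LOC445811) at 11.5 ± 1.18 FPKM, the receptor Patched (LOC121424497) at 14.9 ± 0.951 FPKM, Smoothened (LOC121416282) at 9.04 ± 0.382 FPKM and Suppressor of fused (LOC121424919) at 7.29 ± 0.302 FPKM. The GLI3-like models LOC121411935 and LOC121411936 had 0.31 ± 0.00857 and 0.287 ± 0.0632 FPKM. The VEGF receptor named in the curated table (LOC121408625), which guides PMCs and skeletal growth, had 9.18, 9.85 and 11.3 FPKM. The FGF receptors LOC121425598 and LOC121425416 were higher, at 51.4 ± 4.70 and 22.6 ± 1.40 FPKM. Among 9 Eph and ephrin models, which signal between touching cells, the ephrin type-B receptor 2 model LOC121427472 and ephrin-B2 (LOC121417006) were the highest, at 12.6 ± 2.81 and 12.3 ± 1.81 FPKM.

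Genes without counts numbered 4970 (18.5% of all). They included 951 of 985 tRNA models (96.5%), 179 of 183 snRNA models (97.8%), 70 of 78 rRNA models (89.7%) and 53 of 65 snoRNA models (81.5%), classes that mostly lack poly(A) tails. Of 2335 lncRNA models, 733 (31.4%) had no counts. Among 22667 protein-coding models, 2829 (12.5%) had none, and 16663 (73.5%) had counts in each library. Coding models without a RefSeq description were at 0 more often, 1248 of 5736 (21.8%), than those with one, 1581 of 16931 (9.34%). Short models were also at 0 more often, with 165 of 283 (58.3%) for those of up to 500 bases, and 52 of 3097 (1.68%) for those over 5000 bases. The part of length and depth in these shares was not tested.

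The large receptor families held many of the described genes at 0. Among 792 rhodopsin-like G protein-coupled receptors, which bind transmitters, peptides and other small ligands, 271 (34.2%) had no counts, 121 had a mean of at least 1 FPKM and the median was 0.053 FPKM. The highest was a sphingosine 1-phosphate receptor 2 (LOC121415653) with 51.2, 46.1 and 46.9 FPKM. By description, 40 of 92 models named HARBI1 (43.5%), a nuclease related to transposases, had no counts, against 12.5% of all protein-coding models. None were found either for 27 of 53 named TRIM71 (50.9%) and 14 of 25 named mucin-2 (56%). These names were among those with the most models at 0. Others were deleted in malignant brain tumors 1 protein (27 of 91, 29.7%) and MAM and LDL-receptor class A domain-containing protein 1 (18 of 60, 30%). All 7 models named diencephalon/mesencephalon homeobox protein 1 had no counts. In contrast, 10 of 147 cytochrome P450 models (6.80%) and 5 of 143 solute carriers (3.50%) were at 0, with medians of 0.983 and 2.88 FPKM. The longest described coding models at 0 were mucin-16 (LOC121427868, 24180 bases), 2 sacsins (LOC121422860 and LOC121412842, 14023 and 13149 bases), mucin-3A (LOC121427886, 12165 bases) and B-cell lymphoma/leukemia 11B (LOC121418894, 8267 bases).

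**Figure D4:**
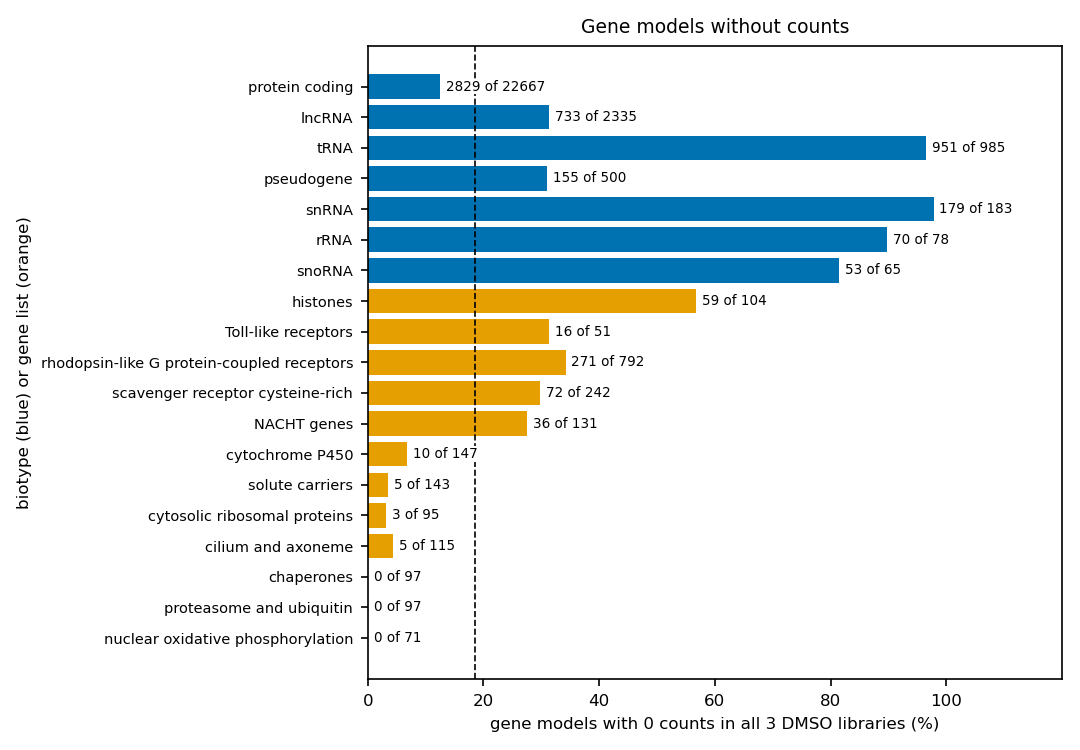
Share of gene models with 0 counts in all 3 DMSO libraries, in percent, by biotype (blue bars, those with at least 50 models) and by gene list (orange bars), with the share over all gene models, 18.5%, as a dashed line and the counts beside each bar. Small RNA classes exceed 80%, histones reach 56.7%, and the lists of chaperones, proteasome and ubiquitin and nuclear oxidative phosphorylation are at 0.

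The 19 chromosomes differed in the share of coding genes detected, a pattern singled out after its values had been seen. On chromosomes 6 and 8, 51.2% and 53.6% of coding models had counts in each library and 27.2% and 25.2% had none, whereas on chromosome 7 88.6% had counts in each and 5.04% had none. The medians were 0.229, 0.355 and 5.40 FPKM.

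The spread between the 3 libraries set the precision of these levels. The biological coefficient of variation estimated by edgeR was 0.289 over 14737 genes. In single genes with a mean of at least 100 counts, the median SD of log2(FPKM + 1) was 0.22 and 1.65% exceeded 1. Pearson's r across 16236 genes was between 0.948 and 0.950 for the 3 pairs of libraries, a description only, since genes are not independent replicates. The steadiest genes included protein kinase C delta (LOC121410526) with 46.52, 46.52 and 46.54 FPKM and P58-A (LOC121425028, described as an IgGFc-binding protein), a PMC membrane protein, with 113.8, 113.6 and 114.1 FPKM. Such genes were picked as the smallest of 10060 SDs, each from 3 libraries, so their true spread can be larger. Of the 2187 gene models with counts in 1 library only, 838 had 1 count there and 3 had 100 or more.

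Some of the least steady genes were 1 of several copies. Ribosomal protein S28 (LOC121424577) had 0.491, 203 and 399 FPKM, while its other model LOC121424525 had 847, 411 and 355 FPKM, and their sum was 847, 614 and 754 FPKM. Ribosomal protein L30 model LOC121419549 had 176, 0 and 3.28 FPKM, against 511, 760 and 967 FPKM in LOC121418186. Without replicate 3 the mean of LOC121424577 was 102 FPKM instead of 201, and without replicate 1 that of LOC121419549 was 1.64 FPKM instead of 59.6. In each pair the libraries low in one model were high in the other. Over the 19 ribosomal proteins with several models the median SD of the summed level was 0.21 in log2(FPKM + 1), and 0.33 for the 36 single models of these proteins with a mean of at least 100 counts. The 54 proteins with 1 model had a median SD of 0.21 too. The least steady of those, L39 (LOC121421702, named after its values were seen), had 11.6, 29.2 and 251 FPKM. An elongation factor 2 model (LOC121416118) had 213, 1.31 and 59.7 FPKM. Another model with the same description (LOC121416018) was steadier, at 548, 637 and 649 FPKM. A carboxypeptidase B (LOC121408692) had 1.63, 3.79 and 78.02 FPKM. Without replicate 1 the mean of LOC121416118 was 30.5 FPKM instead of 91.5, and without replicate 3 that of LOC121408692 was 2.71 FPKM instead of 27.8.

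**Figure D5:**
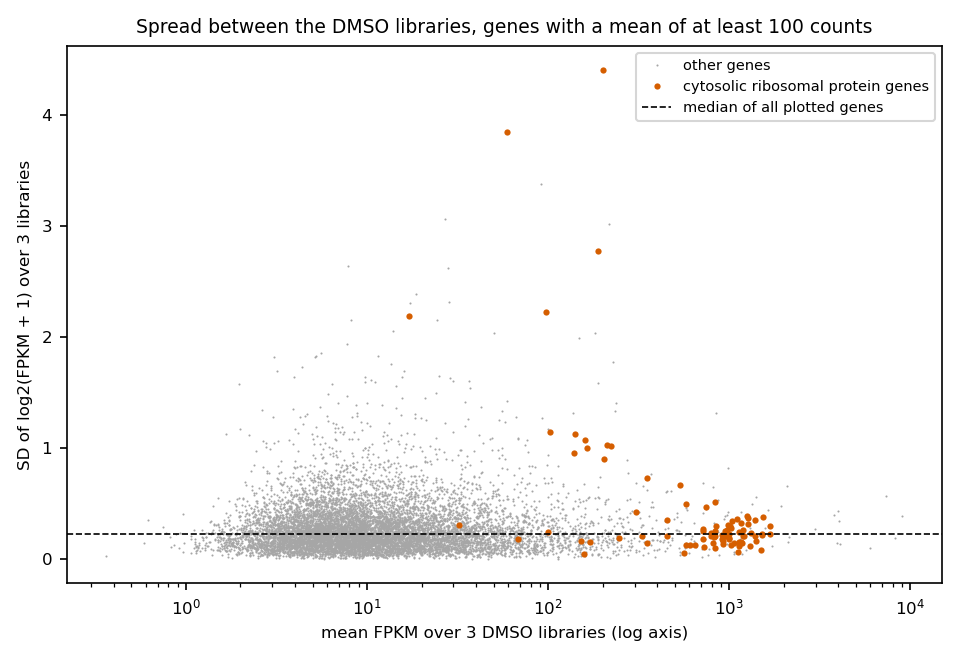
SD of log2(FPKM + 1) over the 3 DMSO libraries against mean FPKM (log axis) for the 10060 gene models with a mean of at least 100 counts (grey), with cytosolic ribosomal protein genes in orange and the median SD of 0.22 as a dashed line. The SDs run from 0.055 at the 5th percentile to 0.678 at the 95th, and a few ribosomal protein models lie above 2. The median falls from 0.249 at mean counts of 100 to 300 to 0.184 at 3000 or more.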

How the data were processed

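The authors purified poly(A) RNA from whole embryos, made strand-specific libraries and aligned reads to Lvar_3.0 using HISAT2. CASAVA 1.8, DESeq and DESeq2 are also named in the submitters' processing notes. Versions of HISAT2, the counting tool, its strand setting and its use of multiply mapped reads are not given in the sources used here. The deposited counts are raw whole numbers per gene, and the deposited FPKM values were tested to equal the count divided by the deposited gene length and by 1 scaled library size, which was 1.00 to 1.04 times the total count. No replicates were pooled.

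Only the 3 DMSO columns were used. With 1 condition no test between groups was made, and values are mean and SD over 3 matings. All 26814 gene models matched the RefSeq table of Lvar_3.0, which gave the chromosomes. Labels are the RefSeq part of the deposited description, or the SwissProt part where RefSeq gives none, and 2 of 29 identifiers of curated factors matched no gene. The 41 lists came from such labels, Pfam entries, the study's tables of PMC genes, and known markers. The members and lists were chosen with earlier results of these data known. Named are the 30 highest genes, the 5 highest of each list and its members at 0 in lists of at most 40, the 10 highest factors, the highest of each family of at least 20 genes, the 10 genes of largest and of smallest SD, the 5 longest described coding genes at 0 and the curated factor and pathway genes, of which some are summarised and some are not reported here. Further members of the marker and signalling lists, and the models sharing a protein with a named copy, were named after their values were seen.

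Dispersion was estimated with edgeR 4.0.16 in R 4.3.3 (TMM, filterByExpr, intercept only). Python 3.11.15 with pandas 2.3.3 was used elsewhere. The dispersion estimate was tested on simulated counts. The Python formula for the number of genes expected at reduced depth was tested on randomly thinned DMSO counts. Levels, ranks, lists and spreads were not tested on simulated data. A count of 0 was taken to allow 3 counts per library. No sequence is printed, as none was used here.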

Additional observations from a re-analysis of the deposited data

How the results depend on the processing

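The number of genes detected stayed within 1.5 times the 17783 reported, with 21844 for counts in any library, 14876 for at least 10 counts in each, 14422 for a mean of at least 1 FPKM, 17048 expected at 50% of the depth, and 18351 to 18483 without 1 library. Genes without counts numbered 6968 when up to 3 counts in total were allowed and 5645 to 5805 without 1 library. The share held by the 100 most abundant genes depended on the measure. It was 36.8% of FPKM, 33.2% without the mitochondrial genome, 18.98% of the counts for the same genes and 23.3% of the counts when genes were ranked by CPM, and between 36.8% and 37.1% of FPKM without 1 library. The coefficient of variation was 0.289 with TMM and with RLE, 0.393 without a filter, 0.292 with at least 10 counts in each library and 0.286 to 0.296 without 1 library, and the median SD was 0.22 for log2(FPKM + 1) and 0.25 for log2(FPKM + 0.1). Of 41 lists, 33 had a median of at least 1 FPKM, 33 or 34 did under the other scales or without 1 library, and 40 did when only members with at least 10 counts in each library were kept. Cytochrome P450 crossed 1 FPKM, from 0.794 to 1.17 without 1 library. TPM was 2.36 times FPKM at the median gene, a shift of 1.24 in log2 that leaves ranks within a library as they are. No paired analysis was possible because each mating gave 1 control library and no groups were compared. Depth limits the genes at 0 to at most 3 counts per library.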
